A study of Mus musculus with 4 samples.

Results

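Scavenger receptors are the proteins with which tissue macrophages take up modified lipoproteins, hemoglobin complexes, microbes and dying cells. The genes described here in fetal liver LSK cells encode such receptors or soluble proteins that work beside them: *Marco*, *Msr1*, *Cd163*, *Mrc1*, *Stab1*, *Cd36*, *Cd5l*, *Timd4*, *Vsig4* and *Fcna*. They were matched by gene name in the deposited table, which gave all 10 members among its 39186 genes. The set was chosen by function and with the difference between *Pich*-KO and *Pich*-WT values of macrophage genes already known. That difference is therefore given for the members as a description, and no test of it is used as evidence.

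The receptors belong to several structural families. *Marco* and *Msr1* encode trimeric receptors with a collagen-like stalk that bind polyanions on bacteria and on modified lipoproteins. *Cd163* and *Cd5l* encode proteins built from scavenger receptor cysteine-rich domains, *Mrc1* the mannose receptor, *Stab1* stabilin-1 and *Cd36* a receptor for oxidized lipids and long-chain fatty acids. *Timd4* encodes a receptor for phosphatidylserine on apoptotic cells, *Vsig4* a receptor for complement C3 fragments, and *Fcna* the secreted lectin ficolin A. In the fetal liver, macrophages form the centre of erythroblastic islands and engulf the nuclei that erythroblasts expel, and the sinusoidal endothelium is known to share some of these receptors, among them *Mrc1*, *Stab1* and *Cd36*.

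RNA was sequenced from sorted LSK cells (Lin−Sca-1+c-Kit+, the fraction that holds hematopoietic stem cells and multipotent progenitors) of C57BL/6 fetal livers. There were 2 *Pich*-KO and 2 *Pich*-WT samples. The knockout is a TALEN-made deletion of a few bases in exon 2 of the X-linked *Pich* gene, carried in the mouse line rather than made in blood cells alone. The study's methods describe sorting from E14.5 livers with lineage antibodies against CD4, CD8, Gr-1, B220 and Ter119, a list without a macrophage or endothelial antigen, and the sources used here do not say whether a sample was 1 embryo or a pool. The labels do not say that samples of a group came from separate embryos, so the spread between the *Pich*-KO samples may be technical. The *Pich*-WT samples differed in Y-linked and *Xist* reads, given below, so they were not repeats of the same cells.

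Each sample held 14703215 to 20933919 reads on genes. Values are normalized counts, which scale a gene's reads by a size factor for the sample. Replicates differed beyond counting error (chi-square over its degrees of freedom, 17.7 for *Pich*-KO and 9.54 for *Pich*-WT), so none was a copy of another. *Ercc6l*, the gene of PICH, stood at 1187 ± 63.8 in *Pich*-KO and 717 ± 78.6 in *Pich*-WT (SD, n = 2), and since the allele is a small deletion this does not check the labels. *Pich*-WT replicate 2 had 0 reads on 4 Y-linked genes and 699 on *Xist*, while the other samples had 1607 to 2848 Y-linked and 4 to 13 *Xist* reads. Without it, the log2 fold changes of the 10 members ran from −7.24 for *Fcna* to −2.83 for *Msr1*. Of the genes behind the positive gates, *Kit* (c-Kit) had 4447 and 2773 normalized counts in *Pich*-KO against 2328 and 2513 in *Pich*-WT and was not called (adjusted p = 0.114, limma). *Ly6a*, the Sca-1 gene, was higher in both *Pich*-KO samples, at 3586 and 2978 against 901 and 1061, and its log2 fold change was 1.74 (limma, adjusted p = 0.000167).

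All 10 genes were far lower in *Pich*-KO than in *Pich*-WT LSK cells. Together they had 27656 and 21049 reads in *Pich*-WT replicates 1 and 2, against 785 and 602 in *Pich*-KO replicates 1 and 2. The *Pich*-KO mean was 0.620% of the *Pich*-WT mean for *Fcna*, the lowest share of the set, and 12.7% for *Msr1*, the highest. In bulk RNA, fewer cells of a type and less RNA per cell cannot be told apart. Both *Pich*-KO values lay below both *Pich*-WT values for 10 of 10 genes, where 27.2% of all genes tested had this order.

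**Figure D1:**
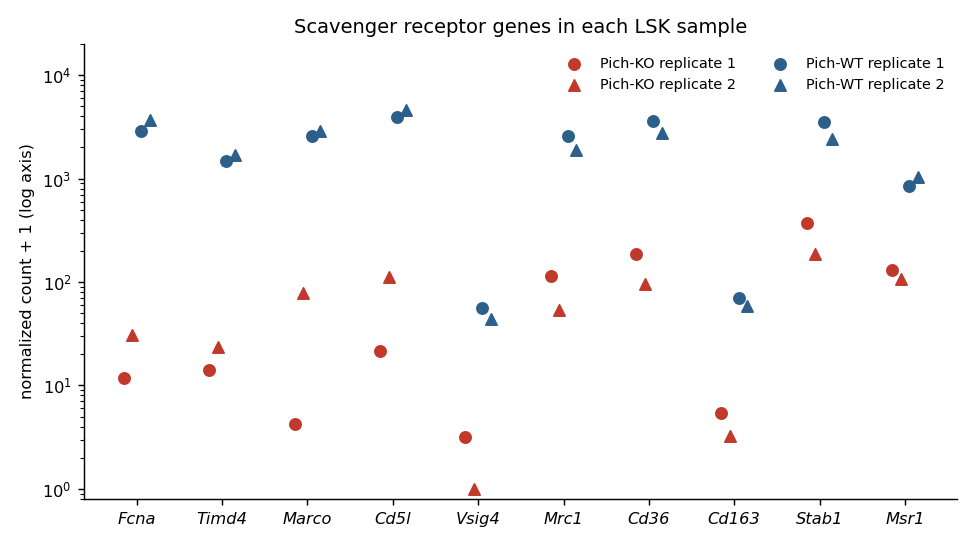
Normalized count plus 1 (log axis) of each of the 10 genes in the 4 samples, ordered by the *Pich*-KO mean as a share of the *Pich*-WT mean; red points are *Pich*-KO and blue points *Pich*-WT, circles replicate 1 and triangles replicate 2. No red point reaches a blue point of the same gene, and the red points of *Marco* and *Cd5l* lie farthest apart from each other among the genes with at least 10 *Pich*-KO reads.

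Of the collagen-stalked receptors, *Marco* (ENSMUSG00000026390, chromosome 1, 120474538 to 120505024, GRCm38) had normalized counts of 3.27 and 77.3 in *Pich*-KO replicates 1 and 2. Its values in *Pich*-WT replicates 1 and 2 were 2572 and 2878. The *Pich*-WT values were close to each other, while the *Pich*-KO values rested on 3 and 68 reads and were the most uneven pair among the genes with at least 10 *Pich*-KO reads. The log2 fold change of *Marco* was −7.22 (standard error 1.08), and leaving out *Pich*-KO replicate 1 or 2 gave −5.12 or −9.32. *Msr1* (ENSMUSG00000025044, chromosome 8, 39581685 to 39642673), the class A scavenger receptor, had 131 and 107 in *Pich*-KO against 846 and 1029 in *Pich*-WT. Its *Pich*-KO values were even, and at −2.97 (standard error 0.19) it had the smallest log2 difference of the 10.

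The cysteine-rich family held an abundant and a scarce transcript. *Cd5l* (ENSMUSG00000015854, chromosome 3, 87357881 to 87371073), which encodes the secreted apoptosis inhibitor of macrophages, had 20.7 and 110 in *Pich*-KO, against 3976 and 4601 for the *Pich*-WT samples. The groups were widely apart, although *Pich*-KO replicate 2 was several times above replicate 1. Its log2 fold change was −6.44 (standard error 0.62), with −5.26 and −7.62 when *Pich*-KO replicate 1 or 2 was left out. *Cd163* (ENSMUSG00000008845, chromosome 6, 124304656 to 124330527), the receptor for hemoglobin bound to haptoglobin, was low everywhere: the *Pich*-KO samples had 4 and 2 reads, the *Pich*-WT samples 89 and 58. The pooled ratio of *Pich*-WT to *Pich*-KO for *Cd163* was 19.3, with an exact 95% interval of 8.66 to 53.5 that covers counting error only.

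*Mrc1* (ENSMUSG00000026712, chromosome 2, 14229392 to 14332057) is the mannose receptor gene, and its normalized counts were 112 and 52.3 (*Pich*-KO) against 2606 and 1901 (*Pich*-WT), or −4.84 as a log2 fold change (standard error 0.34). *Cd36* (ENSMUSG00000002944, chromosome 5, 17781690 to 17888801) had 184 and 95.5 against 3632 and 2775, or −4.57 (standard error 0.29). *Stab1* (ENSMUSG00000042286, chromosome 14, 31139013 to 31168641), the gene with the longest transcribed length of the set, had 374 and 188 against 3500 and 2429, or −3.46 (standard error 0.31). In these genes replicate 1 was the higher sample of both groups. *Stab1* overlaps the end of *Nt5dc2* on the other strand, and the strand setting of the counting is not given in the sources used here. *Nt5dc2* had 4511 and 5257 (*Pich*-KO) against 4620 and 4104 (*Pich*-WT), with overlapping groups. *Mrc1* also holds *Mir511*, which had at most 2 reads in any sample.

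*Timd4* (ENSMUSG00000055546, chromosome 11, 46810800 to 46844332) had normalized counts of 13.1 and 22.7 in the *Pich*-KO samples, far below the 1475 and 1688 of *Pich*-WT, and its log2 fold change was −6.43 (standard error 0.28). *Vsig4* (ENSMUSG00000044206, chromosome X, 96247203 to 96293438) had 71 and 43 reads in *Pich*-WT but 2 and 0 in *Pich*-KO. With 2 *Pich*-KO reads in all, its pooled ratio of *Pich*-WT to *Pich*-KO was 44.9, with an exact 95% counting interval of 12.2 to 375. *Vsig4* lies on the X chromosome, and its *Pich*-WT values of 55.5 and 43.0 normalized counts came from a library with and a library without Y-linked reads. *Fcna* (ENSMUSG00000026938, chromosome 2, 25624666 to 25628030) had 10.9 and 29.6 in *Pich*-KO, against 2881 and 3647 for the *Pich*-WT samples. Its log2 fold change was −7.41 (standard error 0.40), and −6.73 or −8.09 when *Pich*-KO replicate 1 or 2 was left out, so that its order against *Marco* rested on single libraries. Its antisense neighbour *Fcnaos* had 2 to 19 reads per sample.

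Per length, the 10 genes spanned a wide range of levels in *Pich*-WT LSK cells. *Fcna* had 2097 and 2654 normalized counts per kilobase in replicates 1 and 2 and *Cd5l* 1953 and 2260. The ranges of these leading genes overlapped, with *Fcna* the higher in each sample. *Marco* followed at 1336 and 1495, below both. *Cd36* had 1012 and 773 and *Timd4* 679 and 777 per kilobase, and their ranges overlapped. *Mrc1* at 409 and 298 overlapped *Stab1* at 340 and 236 in range, and was the higher in each sample. *Msr1* at 133 and 162, *Vsig4* at 37.4 and 29.0 and *Cd163* at 12.7 and 10.6 closed the order without overlap. In *Pich*-KO the same scale ran from 0.608 for *Cd163* to 39.0 for *Cd36*, and *Fcna* at 14.7 no longer led.

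**Figure D2:**
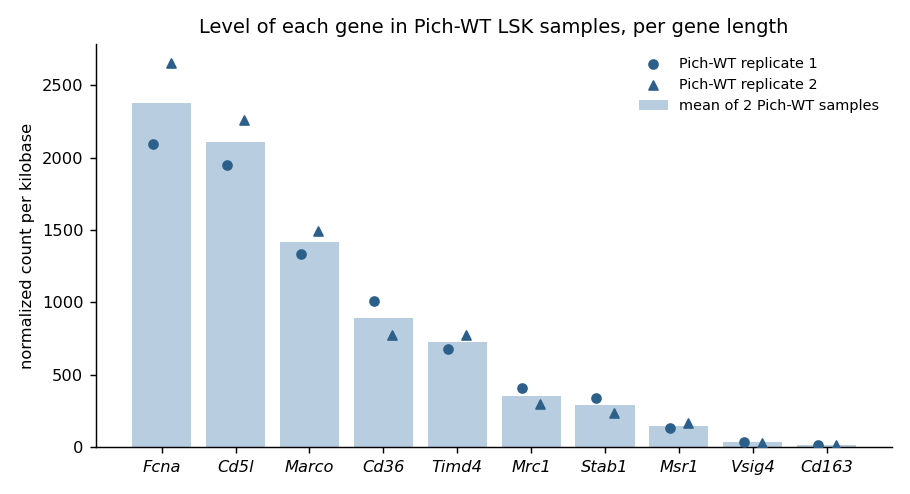
Normalized count per kilobase of gene length in *Pich*-WT LSK cells; bars start at 0 and give the mean of 2 samples, circles and triangles the samples. *Fcna* and *Cd5l* stand at 1953 or more in both samples, and *Vsig4* and *Cd163* at 37.4 or less.

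The members showed separate patterns within the groups, a description chosen after their values were seen. Of the 8 genes with at least 10 reads in each group, *Mrc1*, *Stab1* and *Cd36* were higher in replicate 1 of both groups. The ratio of replicate 1 to replicate 2 was 2.15, 1.99 and 1.93 for *Pich*-KO, while *Pich*-WT gave 1.37, 1.44 and 1.31. *Marco*, *Cd5l*, *Fcna* and *Timd4* were higher in replicate 2 of both groups, with ratios of 0.0423, 0.188, 0.369 and 0.576 in *Pich*-KO and 0.790 to 0.894 in *Pich*-WT. The exact 95% counting interval left 1 on one side for each of these ratios except that of *Timd4* in *Pich*-KO, 0.257 to 1.24. *Msr1* had a ratio of 1.22 in *Pich*-KO, with an interval of 0.927 to 1.62, and 0.823 in *Pich*-WT. *Cd163* and *Vsig4*, with fewer reads, were also higher in replicate 1 of both groups, but their counting intervals included 1. The replicate numbers tie the groups to no shared embryo or day that the labels name.

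**Figure D3:**
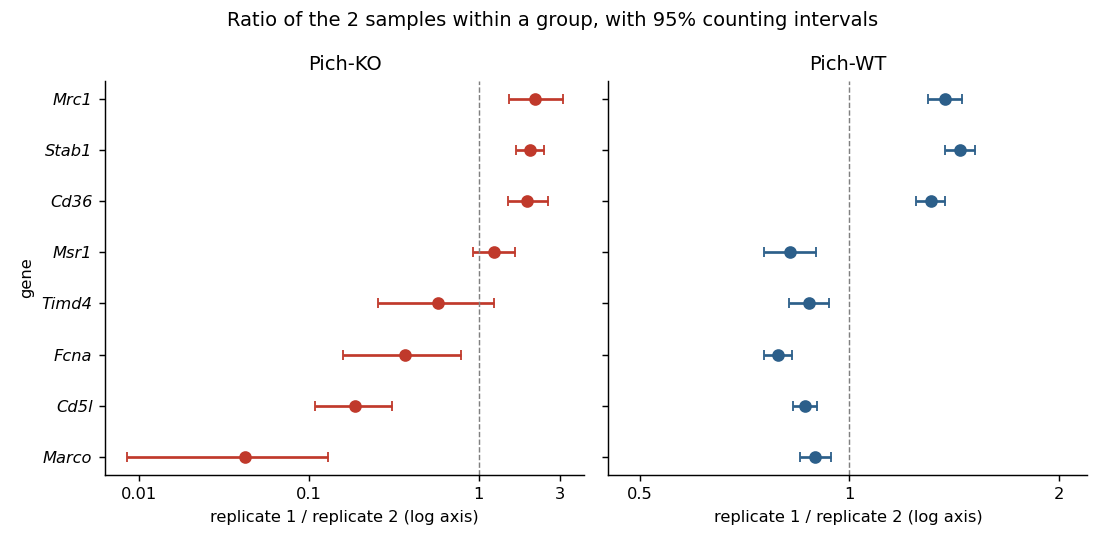
Ratio of replicate 1 to replicate 2 (log axes) for the 8 genes with at least 10 reads in each group, in *Pich*-KO (left) and *Pich*-WT (right); bars are exact 95% intervals for counting error only, and the dashed line marks equal samples. *Mrc1*, *Stab1* and *Cd36* lie right of the line in both panels, and *Marco*, *Cd5l*, *Fcna* and *Timd4* lie left of it in both.

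Endothelial genes had the order of *Mrc1*, *Stab1* and *Cd36*. Of 15 endothelial markers, 14 were higher in replicate 1 of both groups, with a median ratio of 2.23 in *Pich*-KO and 1.38 in *Pich*-WT. The whole list was also lower in *Pich*-KO, with 15 of 15 genes called and a summed level of 6962 and 4354 in *Pich*-KO against 51309 and 35952 in *Pich*-WT, and none of them was at or under 3 reads in any sample. *Lyve1*, a hyaluronan receptor of sinusoids and of some macrophages, fell from 11442 and 7322 to 326 and 144 (adjusted p = 7.7e-05, limma). *Oit3*, a sinusoidal endothelial gene, fell from 8326 and 5634 to 387 and 157 (adjusted p = 0.000156, limma). The part of these cells in the members' values was not tested. Of 19 macrophage markers outside the set with at least 10 reads in each group, 6 were higher in replicate 1 of both groups and 3 in replicate 2 of both. Stem and progenitor markers were higher in replicate 1 for 14 of 14 genes in *Pich*-KO but for 2 of 14 in *Pich*-WT. In *Pich*-WT, replicate 1 was also the higher for 12 of 12 erythroid and 8 of 9 megakaryocyte markers, with median ratios of 1.24 and 1.68. It was the higher in both groups for 3 of 12 erythroid and 4 of 9 megakaryocyte markers. The share of all genes higher in replicate 1 of both groups was not counted.

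RefSeq promoters (GRCm38.p6, 250 bases before to 50 after the start) were matched for 9 of the 10 genes. The upstream 250 bases are shown for the 4 genes with the lowest *Pich*-KO share of the *Pich*-WT level, 5′ to 3′ on the gene's strand. Capitals mark GAGGAA or its reverse complement, the core that the macrophage factor PU.1 and related ETS factors are known to bind.
*Fcna*, chr2:25627975-25628224 (minus strand): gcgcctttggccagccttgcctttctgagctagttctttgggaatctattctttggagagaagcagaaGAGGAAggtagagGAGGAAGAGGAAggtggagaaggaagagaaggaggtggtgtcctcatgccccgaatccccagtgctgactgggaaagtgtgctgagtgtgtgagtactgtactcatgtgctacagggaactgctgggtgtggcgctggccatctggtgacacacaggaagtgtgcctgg
*Timd4*, chr11:46810549-46810798 (plus strand): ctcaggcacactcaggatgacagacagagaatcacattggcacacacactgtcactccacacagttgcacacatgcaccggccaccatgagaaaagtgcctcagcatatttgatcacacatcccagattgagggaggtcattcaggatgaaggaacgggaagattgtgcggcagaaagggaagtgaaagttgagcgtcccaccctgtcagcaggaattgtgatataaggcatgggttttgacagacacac
*Marco*, chr1:120505025-120505274 (minus strand): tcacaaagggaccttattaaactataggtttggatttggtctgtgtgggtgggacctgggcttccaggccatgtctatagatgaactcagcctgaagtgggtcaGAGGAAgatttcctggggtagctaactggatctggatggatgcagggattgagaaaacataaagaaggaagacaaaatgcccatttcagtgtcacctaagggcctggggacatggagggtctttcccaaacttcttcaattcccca
*Cd5l*, chr3:87357631-87357880 (plus strand): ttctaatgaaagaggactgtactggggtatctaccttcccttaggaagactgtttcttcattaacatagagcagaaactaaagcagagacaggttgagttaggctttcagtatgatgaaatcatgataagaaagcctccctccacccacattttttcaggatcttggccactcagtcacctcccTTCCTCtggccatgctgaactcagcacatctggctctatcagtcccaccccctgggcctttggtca

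None of the motifs searched was in every member's window. GAGGAA, searched on both strands, was present in 6 of the 9 member promoters and in 28.3% of 32851 promoters of the same length. The *Fcna* window held 4 matches, of which 1 lies past the start and outside the printed bases, the *Mrc1* window 3, *Vsig4* 2, and *Marco*, *Cd5l* and *Stab1* 1 each. *Timd4*, *Cd163* and *Cd36* held none. The *Cd36*, *Fcna* and *Mrc1* windows lie at starts inside the listed genes, so the last of the printed *Fcna* bases fall within the listed gene. The *Cd36* window, 17835847 to 17836146, lies far inside its gene, which is on the minus strand and listed up to 17888801. Of the windows, only that of *Cd36* had bases after its start that were not found in a GENCODE transcript of its gene. The AP-1 letters TGAGTCA were in 0 of the 9 and in 5.2% of all promoters, and the TATA letters TATAAA were in 0 of the 9 and in 13.6%, both strands searched. A match is a string of letters and not a measured binding site.

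The comparison over the whole table used limma on log2(normalized count + 1) and took in the 32428 genes whose mean reached 1, with Benjamini-Hochberg adjustment. At an adjusted p of 0.05, 9.60% of the genes were lower and 7.58% higher in *Pich*-KO. All 10 members were among the genes called lower, a count that the choice of the set had already fixed and from which nothing is read. The members' median log2 fold change was −4.82, against 0.02 for all genes tested. When any 1 sample was left out, limma called 0 genes in the whole table, members included. With 2 samples a group, the smallest p that an exact two-sided permutation test allows is 0.333.

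Of 25 further scavenger receptors tested, 7 fell, 1 rose and 17 were not called (limma, adjusted p of 0.05), with a median log2 fold change of −0.39. Over all genes tested, 9.60% were lower and 7.58% higher. Among genes with a mean of at least 10, limma called 9 of 19 receptors lower and 1 higher. In that setting 3497 of all 16280 genes were lower. *Stab2*, the endothelial hyaluronan receptor stabilin-2, fell from 3511 ± 831 to 128 ± 25.4 (SD, n = 2, adjusted p = 2.2e-05, limma). *Colec12*, a collectin with a collagen-like stalk, fell from 1606 ± 20.4 to 56.5 ± 55.8 (SD, n = 2, adjusted p = 0.00108, limma). *Clec7a*, the beta-glucan receptor dectin-1, fell by 1.96 on the log2 scale (adjusted p = 0.000375, limma). *Olr1*, a receptor for oxidized low-density lipoprotein, was the gene that rose, from 6.25 and 19.0 to 41.4 and 163 (adjusted p = 0.0315, limma), and its call was lost with a pseudocount of 0.1 and with no filter on the mean. *Scarb1*, the high-density lipoprotein receptor and the gene with the most reads in the list, had 3555 and 4020 in *Pich*-KO against 4751 and 4613 in *Pich*-WT and was not called (adjusted p = 0.0686, limma).

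Genes for the uptake of apoptotic cells were called in 1 direction. Of 29 tested, 13 fell and 0 rose (limma), 22 had a negative log2 fold change, and the median was −0.86. *Itgb5*, an integrin subunit that binds the bridging protein MFG-E8, fell from 2087 and 1165 to 39.3 and 39.8 (adjusted p = 3.8e-05, limma). *Gas6*, the bridging ligand of the TAM receptor kinases, fell from 1291 and 950 to 62.2 and 19.3 (adjusted p = 0.000355, limma). *Pros1*, the other TAM ligand, fell by 1.49 and *Dnase2a*, the lysosomal nuclease that digests engulfed nuclei, fell by 0.79 on the log2 scale (adjusted p = 0.00364 and 0.0111, limma). *Rac1*, a small GTPase of the engulfment machinery, fell from 10604 and 9118 to 4078 and 1463 (adjusted p = 0.00922, limma), whereas its partner *Elmo1* at 4516 and 4221 against 3556 and 3746 was not called (adjusted p = 0.101, limma). The list shares 5 genes with the receptor list above, *Ager*, *Lrp1*, *Megf10*, *Scarf1* and *Stab2*.

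Among lectin and complement genes the C1q chains *C1qb* and *C1qc* had the most reads. Of 28 tested, 17 fell and 0 rose (limma), with a median log2 fold change of −2.10. *C1qb* and *C1qc*, chains of the complement C1q complex that macrophages secrete, fell from 9681 and 10167 to 387 and 380 and from 8987 and 8414 to 270 and 208 (adjusted p = 3.12e-06 and 4.55e-06, limma). *C1qa* fell by 5.65 on the log2 scale (adjusted p = 4.55e-06, limma). *Clec4f*, a Kupffer cell lectin, fell by 5.91 (adjusted p = 0.00244, limma). *Masp1*, a protease of the lectin pathway, and *Itgam*, the integrin chain CD11b, had the smallest falls that were called at a mean of at least 10; they fell by 1.48 and fell by 1.28 (adjusted p = 0.0264 and 0.0160, limma).

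The macrophage transcription factors were called in both directions. Of 20 tested, 13 fell and 2 rose (limma), with a median log2 fold change of −1.25. *Spic*, required for iron-recycling macrophages, fell from 955 and 1228 to 45.8 and 42.1 (adjusted p = 2.2e-05, limma), and *Nr1h3*, the lipid sensor LXR-alpha, from 1107 and 1186 to 60.0 and 69.3 (adjusted p = 2.2e-05, limma). *Spi1*, which encodes PU.1, was not called, with 6614 and 6775 (*Pich*-KO) against 6316 and 5918 (*Pich*-WT) (adjusted p = 0.352, limma), and neither was *Irf8*, with 7202 and 7052 against 8652 and 6128 (adjusted p = 0.925, limma). *Runx1* and *Zeb2*, which blood progenitors also express, rose by log2 fold changes of 1.46 and 1.24 (adjusted p = 0.000589 and 0.000533, limma).

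Markers of macrophages outside the set were mostly lower in *Pich*-KO, with a negative log2 fold change in 19 of 20. Of 20 tested, 16 fell and 0 rose (limma), with a median log2 fold change of −1.84. *Vcam1*, an adhesion molecule of island macrophages, fell from 3456 and 4128 to 61.1 and 34.1 (adjusted p = 1.7e-05, limma), and *Folr2*, a folate receptor of resident macrophages, from 99 and 73 reads to 1 and 0 (adjusted p = 0.00051, limma). *Csf1r*, the receptor for macrophage colony-stimulating factor, fell from 16306 and 17259 to 7268 and 6111 (adjusted p = 0.000111, limma). *Tyrobp* and *Mpeg1* fell by 0.58 and fell by 0.87 on the log2 scale (adjusted p = 0.00297 and 0.0127, limma). *Laptm5*, a lysosomal protein of most blood cells, was not called, with 22730 and 19903 against 23020 and 22250 (adjusted p = 0.518, limma).

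**Figure D4:**
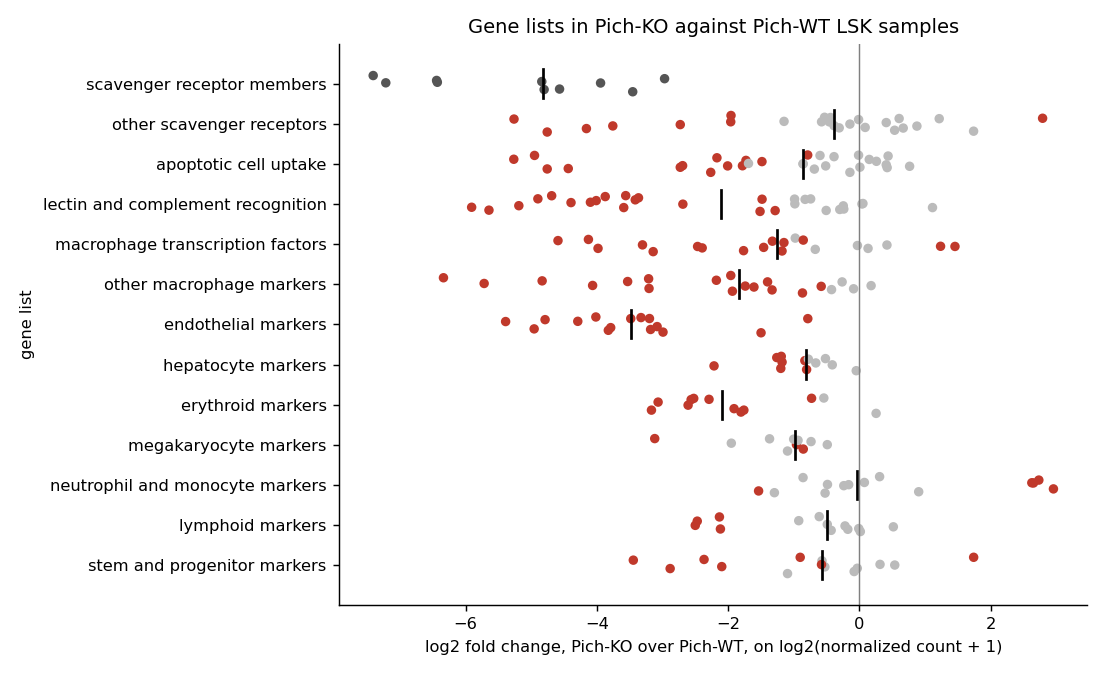
Log2 fold change of *Pich*-KO over *Pich*-WT, on log2(normalized count + 1), for each gene of the 10 members and of the other lists; red points passed an adjusted p of 0.05 (limma), light grey points did not, dark grey points are the members, shown without calls, and black bars are list medians. The members' median of −4.82 lies farthest left, and the endothelial median of −3.48 is the next.

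Markers of other cell types also differed between the groups. Erythroid markers fell in 10 of 12 and rose in 0 (limma), with a summed level of 35846 and 38672 in *Pich*-KO against 203420 and 144050 in *Pich*-WT. *Hba-a1* fell by 2.29 and *Hbb-bt* fell by 2.57 on the log2 scale (adjusted p = 4.65e-05 and 2.87e-05, limma), and globin genes have near-identical copies between which reads can be split. Hepatocyte markers fell in 7 of 12 and had sums of 3368 and 3009 against 5509 and 4906; *Alb* fell by 0.83 (adjusted p = 0.004, limma), while *Afp* was not called (adjusted p = 0.0795, limma). Megakaryocyte markers, of interest because platelets carry CD36, fell in 3 of 10, with sums of 3968 and 2318 against 8951 and 7029; *Pf4* fell by 3.12 (adjusted p = 8.1e-05, limma). Neutrophil and monocyte markers rose in 4 of 14 and fell in 1, with sums of 68739 and 127810 against 23282 and 24836. Most of the *Pich*-KO sums came from *Mpo* alone. Gene by gene there was no common rise: 7 of these 14 markers had negative log2 values, around a median of −0.04. In this list *Mpo*, the neutrophil peroxidase, stood at 54647 and 90492 against 10351 and 12533 and *Prtn3*, a granule protease, at 6835 and 15270 against 1468 and 1607 (adjusted p = 0.000151 and 0.000756, limma). The neutrophil and monocyte list was higher in *Pich*-KO replicate 2 for 13 of 14 genes, as *Marco*, *Cd5l*, *Fcna* and *Timd4* were. Markers with at least 10 *Pich*-KO reads that were higher in *Pich*-KO replicate 1 were 3 of 12 hepatocyte, 3 of 12 erythroid and 4 of 11 lymphoid. The same count was 5 of 9 for megakaryocyte and 14 of 14 for stem and progenitor markers. Lymphoid markers fell in 4 of 13, with sums of 1812 and 2542 against 2792 and 2769. Those that fell were *Cd4*, *Klrb1c*, *Ncr1* and *Cd3g*, with log2 fold changes of −2.50, −2.47, −2.13 and −2.12. *Cd79b* and *Nkg7*, the highest of the list, were not called (adjusted p = 0.970 and 0.0819, limma). Stem and progenitor markers fell in 6 of 14 and rose in 1, the gate gene *Ly6a*, with sums of 33639 and 21407 against 30537 and 32216, and *Cd34* and *Flt3* were not called (adjusted p = 0.869 and 0.0723, limma). At most 2 megakaryocyte or lymphoid markers were at or under 3 reads in a sample, and none of the erythroid, hepatocyte, neutrophil and monocyte, or stem and progenitor markers was. How far these cells entered the members' values was not tested.

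The genes whose pattern over the 4 samples was nearest to the mean of the 10 members were *Efnb2*, *Cadm1*, *Gm13994*, *Naaa*, *C1qc*, *Pltp*, *Dmpk* and *C1qa*. Likeness was the Euclidean distance between centred log2(normalized count + 1) profiles, and it ran from 0.241 for *Efnb2* to 0.519 for *C1qa*. The members themselves lay between 1.08 for *Mrc1* and 3.42 for *Marco* from their own mean. *Cadm1*, an adhesion molecule, had 51.3 and 62.5 (*Pich*-KO) against 1924 and 1647 (*Pich*-WT). *Naaa*, a lysosomal amidase, had 37.1 and 48.9 against 2340 and 1543, and *Pltp*, the phospholipid transfer protein, 14.2 and 12.5 against 671 and 690. In each of these the *Pich*-KO values lay below both *Pich*-WT values, the order that the distance to this profile selects.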

How the data were processed

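RNA of sorted fetal liver LSK cells, 2 *Pich*-KO and 2 *Pich*-WT samples, was sequenced by the authors, who deposited one table of genes. Its values for 3 samples are a signal, gene reads over a size factor relative to *Pich*-WT replicate 2, whose deposited values are whole read counts. All values came out as whole reads (100% within 0.01 of a whole number). The submitters' processing notes name Bowtie 0.12.2 with the mouse builds mm8 and mm9, whereas 97.8% of the genes matched to GENCODE M21 had its start and end, as all 10 members did, so coordinates are GRCm38. Columns of the authors' own fold changes and p-values were not used.

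limma 3.58.1 (R 4.3.3) was fitted on log2(value + 1), without covariates, over genes whose mean was 1 or more; its variance prior was allowed to follow expression. edgeR 4.0.16 and DESeq2 1.42.0 were run on the recovered reads as alternatives. Procedures were tested on simulated counts. The members and lists were chosen with earlier results of these data known. Named in each list were the called genes with the 2 highest and 2 lowest log2 fold changes at a mean of at least 10, and the 2 with the highest mean (for markers of other cell types only these), besides the 8 nearest profiles at that mean and *Ercc6l*. *Kit* and *Ly6a* were added as genes of the sort, chosen after their values were seen, and 1 gene that the rule names is not reported here. Gene lengths are the deposited ones. *Scart1* was not analysed here.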

Additional observations from a re-analysis of the deposited data

How the results depend on the processing

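All 10 members kept a lower level in *Pich*-KO in all 16 alternatives. Without a variance trend limma called 0 genes in either direction, the members and every list included, with 7377 genes at an unadjusted p under 0.05. Leaving out each sample in turn gave 0 limma calls each time for the whole table, the members and all lists (lowest and highest 0), with 5757 to 8599 genes at an unadjusted p under 0.05; the lone sample left is then assumed to vary like the others. edgeR with a sample left out, chosen after seeing the data, called 1717 to 3685 genes higher and 2270 to 3917 lower. On all samples edgeR TMM called 3097 genes higher and 3436 lower, and DESeq2 2605 and 3176. The other scavenger receptors had 0 higher calls with a pseudocount of 0.1 or no filter on the mean. Apoptotic cell uptake had 1 higher call with the replicate block, edgeR TMM and edgeR upper quartile, and with edgeR without *Pich*-KO replicate 1, *Pich*-KO replicate 2 or *Pich*-WT replicate 1. edgeR gave 1 higher call for lectin and complement recognition without *Pich*-KO replicate 1, and 1 for the other macrophage markers without *Pich*-KO replicate 2. The cause of these differences was not tested.

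The labels link same-numbered samples by number alone. The correlation of their deviations was 0.012 over 11794 genes, which cannot show whether a litter or day was shared. The replicate block gave 3122 higher and 3874 lower genes. The log2 fold change of *Vsig4*, with 2 *Pich*-KO reads, was −6.68 with a pseudocount of 0.1 and ran from −8.70 (edgeR without *Pich*-KO replicate 1) to −3.97 (without *Pich*-KO replicate 2), and that of *Marco* ran from −9.61 to −5.11. Depth limits the *Cd163* and *Vsig4* values, and 2 samples a group limit all.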
